A study of Mus musculus with 6 samples.

Results

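The platelet-derived growth factor (PDGF) family was described through all 7 mouse genes that carry its name, out of 27179 genes in the deposited table: the ligand genes Pdgfa, Pdgfb, Pdgfc and Pdgfd, the receptor genes Pdgfra and Pdgfrb, and the receptor-like gene Pdgfrl. They were found by gene symbol, and each matched 1 row. The libraries hold messenger RNA of primary vascular smooth muscle cells, which make up most of the artery wall and give it tone, and which were isolated from mouse aorta and grown in culture. There were 3 WT libraries and 3 labelled Bmal1 KO (Bmal1 encodes the circadian transcription factor BMAL1). All 6 cultures grew with 10% fetal bovine serum and spent 7 days in a medium made to model diabetes, with added hydrogen peroxide (0.3 mM) and glucose (4.5 g/L), so no group without this medium was compared. The labels give neither the promoter or Cre behind the deletion nor the sex, age or number of the mice, and they do not say whether replicates came from separate animals, so each p-value reflects library-to-library spread that may be technical.

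PDGF ligands are secreted dimers that bring receptor tyrosine kinases together and so switch on RAS, phosphoinositide 3-kinase and phospholipase C signalling. The alpha receptor binds the A, B and C chains, and the beta receptor binds the B and D chains. The A and B chains are matured inside the cell by furin-type proteases, while the C and D chains are secreted with a CUB domain that extracellular proteases must cut off. In arteries, PDGF is a classic stimulus for smooth muscle cells to migrate, to divide and to lower their contractile genes.

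Totals were 32503525 to 44657471 reads per library, and every member had at least 114 reads in every library and was tested. The Bmal1 gene, listed as Arntl, was 1.73-fold higher under the Bmal1 KO label (579 ± 45.7 normalized counts in WT and 1005 ± 54.9 in Bmal1 KO, SD, n = 3), and counts of a whole gene do not show a deleted exon. The deletion was therefore not visible in this gene's counts, and Bmal1 KO stands below for the libraries that carry this label. Xist (58.7 ± 40.8 and 3867 ± 23.1) and the Y-linked Ddx3y (3109 ± 285 and 77.1 ± 7.53) separated the same libraries, and the part of sex in any difference cannot be told apart from that of the label. All 8 smooth muscle markers tested were called higher in Bmal1 KO (limma adjusted p under 0.05), against 36.2% of all tested genes. Their levels in WT differed widely, with means of 20688 normalized counts for Acta2 and 5410 for Tagln. Defining ones were low in WT, Myh11 at a mean of 35.9, Itga8 at 29.0 and Myocd at 2.72. Myocd could therefore be tested only through its level in Bmal1 KO.

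Pdgfd and Pdgfc were the members whose change held under every way of processing tried, and they moved in opposite directions. The bases before their starts are shown here from RefSeq (GRCm38.p6, the same build as mm10). Both are on the plus strand, and capitals mark a motif match. The Pdgfc stretch is chr3:81036166-81036415, the 250 bases before the gene, and the Pdgfd stretch is chr9:6168236-6168362, the 127 bases of the RefSeq promoter window that lie before the gene.
Pdgfc: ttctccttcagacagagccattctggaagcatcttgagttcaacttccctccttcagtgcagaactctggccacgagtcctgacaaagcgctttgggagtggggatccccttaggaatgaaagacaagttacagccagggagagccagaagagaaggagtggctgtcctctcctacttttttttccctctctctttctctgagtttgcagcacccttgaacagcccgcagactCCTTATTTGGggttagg
Pdgfd: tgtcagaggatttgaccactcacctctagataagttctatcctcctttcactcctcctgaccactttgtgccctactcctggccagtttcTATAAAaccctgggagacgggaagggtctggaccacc
The capitals in Pdgfc are a CArG box, the element that serum response factor binds, which began 17 bases before the gene. In all, 1.47% of 32851 promoter windows of 250 bases held such a box on either strand. The capitals in Pdgfd are TATAAA, which began 37 bases before the gene but 160 bases before the start on which its window was placed. These 2 starts differ, so its distance from the true start is not settled here. TATAAA was present in 12.4% of windows. The E-box CACGTG, which CLOCK and BMAL1 bind, was in none of the 5 windows listed for Pdgfa (2 windows), Pdgfc, Pdgfd and Pdgfra, against 6.02% of all windows. Its variant CACGTT (3.85% of windows) and CCAAT (33.8%) were also in none of the 5, and GGGCGG (32.7%) was in both Pdgfa windows only. These are matches of letters, and binding was not measured. Only the Pdgfc window lies wholly before its gene's RefSeq start. The Pdgfd window lies in part inside its gene. The windows of Pdgfa and Pdgfra lie wholly inside theirs, so the bases before those 2 genes were not searched. In any case, 5 windows are too few to compare with such shares.

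The level of the family was dominated by the receptors. Levels between genes are given as normalized counts per kilobase of annotated exon. Pdgfrb was highest, at 3046 ± 441 per kilobase in WT and 3721 ± 117 in Bmal1 KO (SD, n = 3), above 96.5% and 97.0% of tested genes with a length. Pdgfra followed at 1066 ± 91.4 and 1241 ± 54.6, above 87.6% and 89.9%. Pdgfa was the most abundant ligand mRNA, at 383 ± 42.4 and 452 ± 23.2. Pdgfrl was at 196 ± 20.3 and 168 ± 9.68, Pdgfc at 136 ± 6.07 and 106 ± 7.19, Pdgfd at 95.7 ± 5.60 and 197 ± 15.6, and Pdgfb was lowest at 44.4 ± 5.25 and 35.9 ± 6.99. The order in all 3 WT libraries was Pdgfrb, Pdgfra, Pdgfa, Pdgfrl, Pdgfc, Pdgfd and Pdgfb, and no neighbours in it overlapped. In all 3 Bmal1 KO libraries Pdgfd stood above Pdgfc, and above Pdgfrl too. Its place against Pdgfrl depended on the length used, since with the longest transcript in place of all exons Pdgfrl stayed above Pdgfd.

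Of the 7 genes, 4 were higher and 1 was lower in the libraries labelled Bmal1 KO by limma with Benjamini-Hochberg adjustment over all 16086 tested genes (adjusted p under 0.05). This is near the background, because 71.1% of all tested genes passed the same test, 36.2% as higher and 34.9% as lower. The changes were mostly small. The median size of the log2 fold change was 0.30 over the members and 0.63 over all tested genes. Pdgfd was the only member called with at least a 2-fold difference, a size that 33.4% of tested genes reached. Normalized counts of the groups did not overlap for 5 of the 7, against 76.7% of tested genes. With TMM scaling of the libraries, 2 members passed (Pdgfd higher, Pdgfc lower), against a background of 71.4% (34.9% higher, 36.5% lower). The same 2 passed by edgeR's quasi-likelihood test, against 71.4% (34.7% higher, 36.6% lower). By DESeq2, 5 passed, against 70.0% (36.0% higher, 34.1% lower), and with total-read scaling 3 passed, 1 higher and 2 lower, against 72.4% (33.4% higher, 39.0% lower). The split turned when a trend on GC content and length was removed and the all-gene median was not held. Then 4 passed, Pdgfd as higher and Pdgfc, Pdgfra and Pdgfb as lower, against 76.7% (28.9% higher, 47.8% lower). That removal also brought every library to the same mean log2 level, and the effect of this was not separated from that of the trend.

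**Figure D1:**
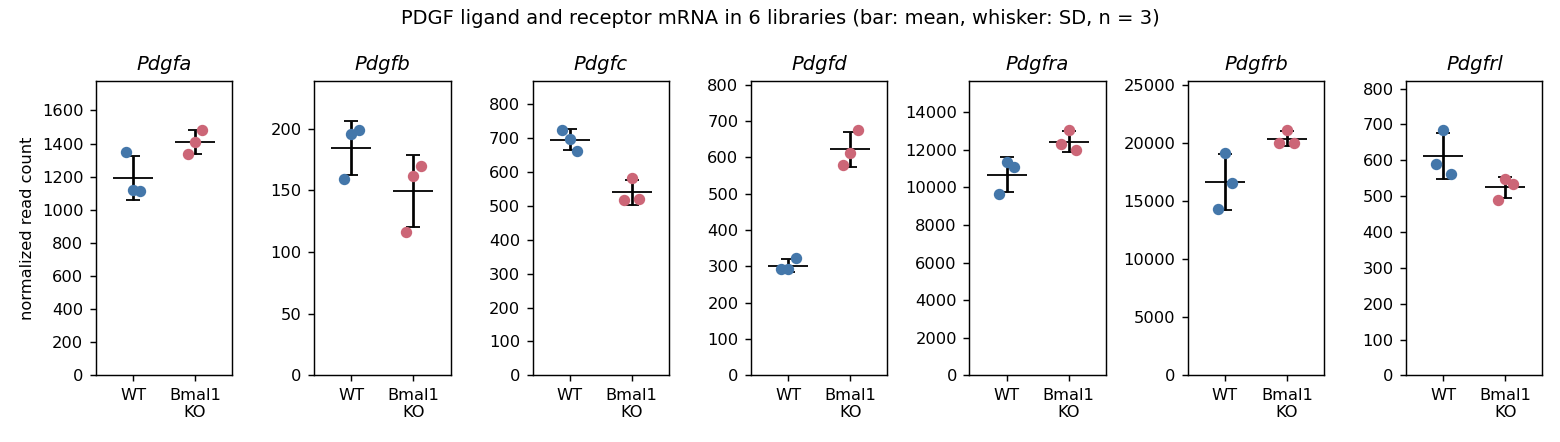
Normalized read counts of the 7 genes (y axes from 0) in the WT (blue) and Bmal1 KO (red) libraries, with each point a library, the bar the mean and the whisker the SD. The Pdgfd points of Bmal1 KO, 578 to 675, lie far above those of WT, 292 to 322, while the groups overlap for Pdgfa and Pdgfb.

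Pdgfd encodes the D chain, a ligand of the beta receptor (NCBI Gene ID 71785, chromosome 9, 6168363 to 6534284). It had 292, 292 and 322 normalized counts in WT replicates 1, 2 and 3, and 578, 613 and 675 in Bmal1 KO replicates 1, 2 and 3. Every Bmal1 KO library lay above every WT library, by more than the spread within either group. Pdgfd rose 2.06-fold, from 302 ± 17.7 to 622 ± 49.3 (SD, n = 3, log2 fold change 1.04, SE 0.10, 95% interval 0.80 to 1.28, limma adjusted p = 6.43e-05). The log2 fold change stayed between 0.88 and 1.12 over all alternatives, and each passed the test. A small gene on the other strand, Ddi1, lies in a Pdgfd intron and had 4 reads in all.

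Pdgfc encodes the C chain, a ligand of the alpha receptor (Gene ID 54635, chromosome 3, 81036416 to 81214040). It had 723, 697 and 661 normalized counts in WT and 516, 582 and 521 in Bmal1 KO, without overlap. Pdgfc fell 1.29-fold, from 694 ± 30.9 to 539 ± 36.6 (SD, n = 3, log2 fold change -0.36, SE 0.089, 95% interval -0.57 to -0.16, limma adjusted p = 0.00696). When a trend on transcript GC content and length was removed, its log2 fold change was -0.30 where the all-gene median was held and -0.55 where it was not (limma adjusted p = 0.0196 and 0.000519). The call held under each alternative. The Pdgfc exons overlap those of a predicted antisense gene over 147 bases. The strand setting of the counting is not given in the sources used here, so reads of such partners cannot be told apart.

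The C and D chains thus exchanged places. Per kilobase, Pdgfc mRNA was 1.53, 1.48 and 1.27 times Pdgfd mRNA in the WT libraries, and 0.553, 0.588 and 0.478 times Pdgfd mRNA in the Bmal1 KO libraries. A ratio within a library does not depend on library scaling. Its height depends on the length used. The mean ratio was 1.43 in WT and 0.540 in Bmal1 KO with all exons, and 2.05 and 0.775 with the longest transcript. The log2 ratio was lower in Bmal1 KO by a difference of -1.40, which ranged from -1.48 to -1.32 when each library was left out, and the groups did not overlap. An exact two-sided permutation test gave p = 0.10, the smallest that 3 libraries against 3 allow, or 0.15 after Benjamini-Hochberg adjustment over the 3 ratios computed.

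Pdgfa, the A-chain gene (Gene ID 18590, chromosome 5, 138976014 to 139000792), encodes a ligand of the alpha receptor. It had 1347, 1121 and 1115 normalized counts in WT and 1337, 1408 and 1482 in Bmal1 KO. The groups overlapped, because WT replicate 1 lay above Bmal1 KO replicate 1. Pdgfa was 1.18-fold higher (1195 ± 132 and 1409 ± 72.3, SD, n = 3, log2 fold change 0.24, SE 0.093, limma adjusted p = 0.0457). The call was lost without WT replicate 2 (adjusted p = 0.119), WT replicate 3 (adjusted p = 0.140) or Bmal1 KO replicate 1, 2 or 3 (adjusted p = 0.0603, 0.108 and 0.149), and with TMM scaling (adjusted p = 0.0652), no filter (0.0516) or the replicate number as a block (0.0594). With the GC and length trend removed, the log2 fold change was 0.41 where the all-gene median was held and 0.16 where it was not (limma adjusted p = 0.00110 and 0.0940). Pdgfa exons overlap those of an antisense gene, 6330403L08Rik, over 813 bases.

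Pdgfb encodes the B chain, which binds both receptors (Gene ID 18591, chromosome 15, 79995865 to 80024614). It had 160, 196 and 199 normalized counts in WT and 116, 162 and 170 in Bmal1 KO, and the groups overlapped. The log2 fold change of -0.32 (SE 0.19, 95% interval -0.76 to 0.13) did not pass the test (limma adjusted p = 0.168), and the interval admits a clear fall as well as no change. The value was -0.15 without Bmal1 KO replicate 1 (limma adjusted p = 0.470). With the GC and length trend removed it was -0.19 where the all-gene median was held and -0.43 where it was not (limma adjusted p = 0.366 and 0.0467). Pdgfa mRNA per kilobase was 11.2, 7.62 and 7.45 times Pdgfb mRNA in WT, and 15.2, 11.5 and 11.5 times in Bmal1 KO. The groups did not overlap, with a difference of 0.56 in the log2 ratio (exact two-sided permutation p = 0.10, adjusted 0.15), and the lowest Bmal1 KO ratio was close to the highest WT ratio.

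Summed over the 4 ligands, levels per kilobase were 659 ± 39.3 in WT and 791 ± 46.2 in Bmal1 KO. Pdgfa made up 58.0% ± 2.89 of the sum in WT and 57.1% ± 0.672 in Bmal1 KO (SD, n = 3), which differed by less than the spread between WT libraries. The share of Pdgfd went from 14.6% ± 1.46 to 24.9% ± 0.719, that of Pdgfc from 20.7% ± 0.747 to 13.4% ± 1.03, and that of Pdgfb from 6.78% ± 1.16 to 4.52% ± 0.650. Such shares depend on the length used, and they were not computed with the longest transcript. The plot of ligand make-up shows the exchange between the C and D chains in each library.

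**Figure D2:**
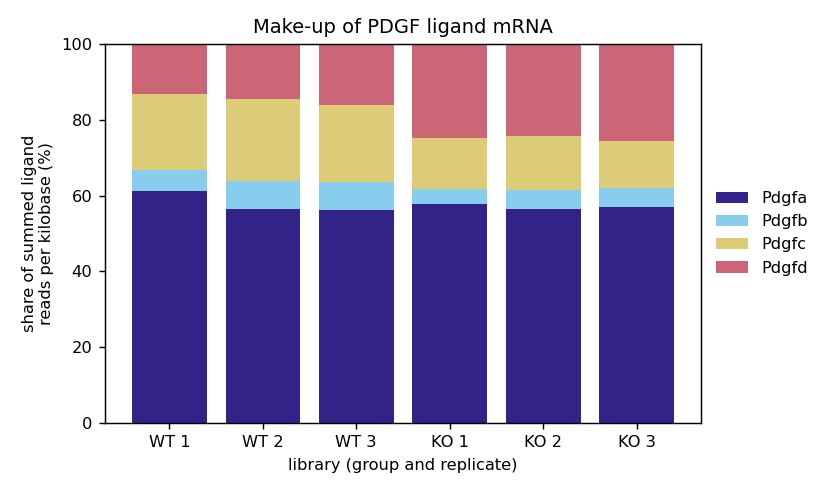
Share of each ligand gene (y axis, percent) in the summed reads per kilobase of the 4 ligands, with a stacked bar for each library. Pdgfd takes 13.1% to 16.0% in the WT libraries and 24.3% to 25.7% in the Bmal1 KO libraries.

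The receptor genes were slightly higher in the libraries labelled Bmal1 KO, but their calls and directions depended on the processing. Pdgfrb (Gene ID 18596, chromosome 18, 61045127 to 61085067), the beta receptor of mural cells, had 14313, 19143 and 16607 normalized counts in WT and 19979, 21126 and 20054 in Bmal1 KO. WT replicate 2 came close to the Bmal1 KO libraries. The log2 fold change was 0.30 (SE 0.11, limma adjusted p = 0.0343, 1.22-fold). The call was lost without WT replicate 3 (adjusted p = 0.0770) or Bmal1 KO replicate 1, 2 or 3 (adjusted p = 0.0712, 0.107 and 0.0797), and with TMM scaling (0.0605). With the GC and length trend removed it was 0.13 where the all-gene median was held and -0.11 where it was not (limma adjusted p = 0.247 and 0.326). Without WT replicate 1 the value was 0.19 (adjusted p = 0.0441).

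Pdgfra (Gene ID 18595, chromosome 5, 75151322 to 75198206), the alpha receptor, had 9635, 11344 and 11063 normalized counts in WT and 12286, 13051 and 11990 in Bmal1 KO, without overlap. The log2 fold change was 0.22 (SE 0.079, limma adjusted p = 0.0347, 1.16-fold). It was lost without Bmal1 KO replicate 1, 2 or 3 (adjusted p = 0.0799, 0.129 and 0.0641) and with TMM scaling (0.0697). Its direction turned with the GC and length trend removed, to -0.048 where the all-gene median was held and -0.29 where it was not (limma adjusted p = 0.599 and 0.00536). Pdgfra exons overlap predicted antisense genes, and their reads cannot be told apart here.

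The balance of the receptors overlapped between the groups. Pdgfra mRNA per kilobase was 0.368, 0.324 and 0.364 times Pdgfrb mRNA in WT, and 0.336, 0.338 and 0.327 times in Bmal1 KO. The log2 ratio differed by -0.075, with a WT SD of 0.10, and the exact two-sided permutation test gave p = 0.40 (adjusted 0.40). The difference ran from -0.13 without WT replicate 2 to -0.042 without WT replicate 1. The mean ratio in WT is 0.511 with the longest transcript as the length in place of all exons, so its height depends on the length used, and the difference between groups does not.

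Pdgfrl encodes a secreted protein that resembles the outer part of the beta receptor (Gene ID 68797, chromosome 8, 40926233 to 40990782). It had 591, 684 and 563 normalized counts in WT and 490, 548 and 535 in Bmal1 KO. All Bmal1 KO libraries lay below all WT libraries, by a small margin. The log2 fold change of -0.22 (SE 0.10, 95% interval -0.46 to 0.022) did not pass (limma adjusted p = 0.0906). It passed with libraries scaled to total reads (-0.29, adjusted p = 0.0310). It was -0.14 without WT replicate 2 (limma adjusted p = 0.266), and -0.029 with the GC and length trend removed and the all-gene median held (limma adjusted p = 0.863).

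**Figure D3:**
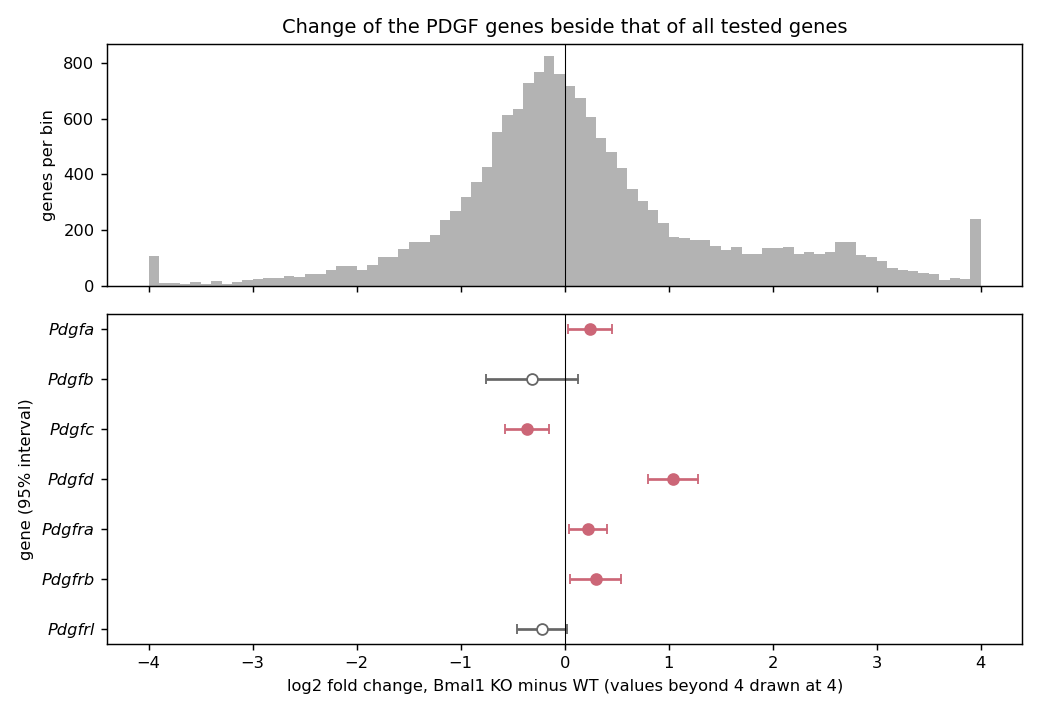
Top, number of genes per bin of 0.1 in log2 fold change (x axis, Bmal1 KO minus WT) over all 16086 tested genes (values beyond 4 drawn at 4), and bottom, the 7 members with 95% intervals from limma (filled, adjusted p under 0.05). Pdgfd stands apart at 1.04, and the other members lie between -0.36 and 0.30, near the centre of all genes.

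**Figure D4:**
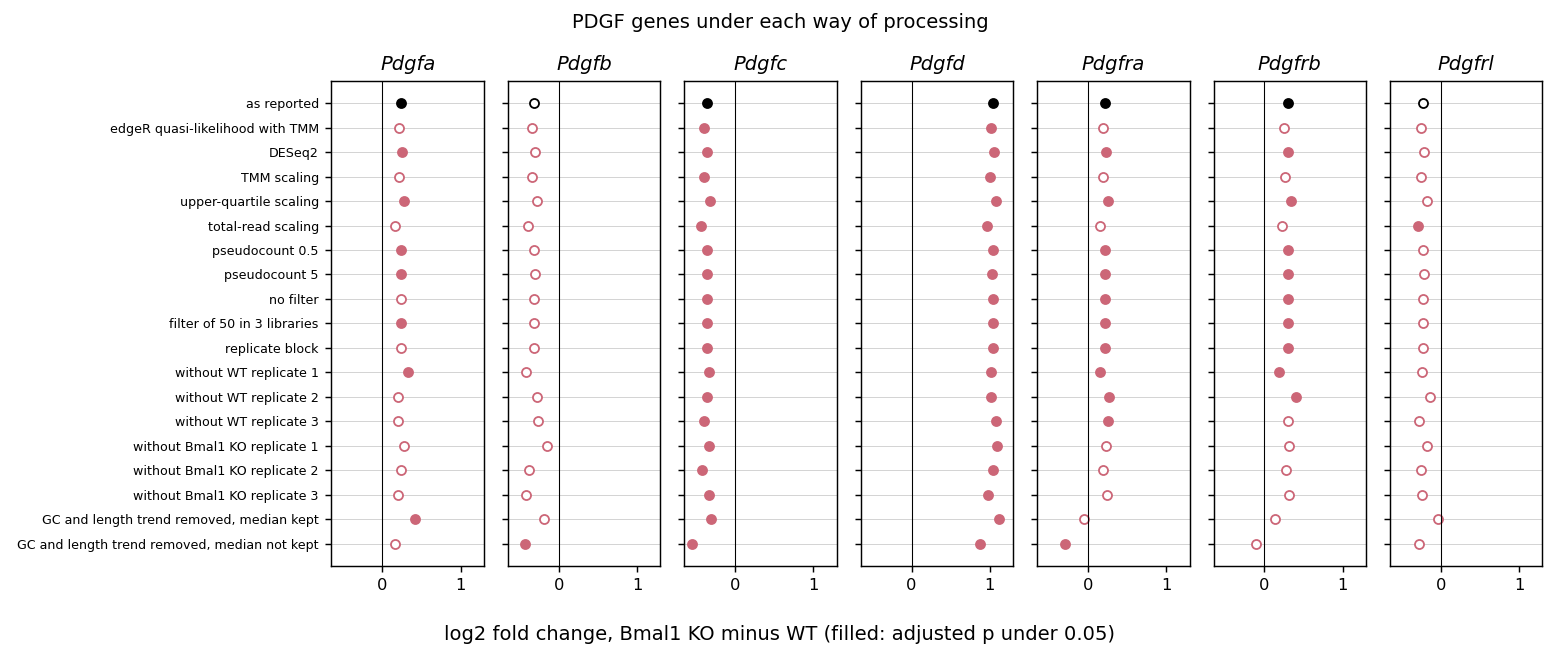
Log2 fold change (x axis) of each member under each way of processing (y axis), with filled points at an adjusted p under 0.05 and black points for the values given in the text. Pdgfd and Pdgfc stay filled on their own side of 0 throughout, while Pdgfra crosses 0 when the GC and length trend is removed.

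Among the proteases that process PDGF chains, 2 of 7 rose and 3 fell, and the other 2 missed the threshold (the median log2 fold change was -0.50, against -0.012 over all tested genes). Over all tested genes, 36.2% were called higher and 34.9% lower, and these shares are the background for each list below. Plat, which encodes tissue plasminogen activator, the activator of the C chain, had 8116, 9294 and 8547 normalized counts in WT and 2485, 2316 and 2253 in Bmal1 KO. It fell 3.68-fold (log2 fold change -1.88, limma adjusted p = 4.04e-07). Plau, which encodes urokinase, known to cut the D chain, had 1756, 1652 and 1685 against 313, 315 and 312. Every Bmal1 KO library lay far below every WT library for both genes. St14, which encodes matriptase, another protease of the D chain, had a log2 fold change of -0.50 and did not pass (limma adjusted p = 0.136). Pcsk6, a furin-type convertase, fell 5.01-fold, Pcsk7 rose 1.72-fold, and Furin itself had a log2 fold change of -0.27 that did not pass (limma adjusted p = 0.0532). Pcsk5 rose from a low level of 10.3 ± 1.23 to 56.8 ± 13.0 (SD, n = 3), below the minimum of 10 in a WT library, so it could be called only through Bmal1 KO. The count of higher proteases was 1 with a filter of 50, and that of lower ones 5 with the GC and length trend removed and the all-gene median not held.

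Of 7 matrix and plasma proteins that bind PDGF or have been placed with it, 6 rose and 1 fell (median 1.15), of which A2m, a plasma protease inhibitor gene, was tested only through 1 group. Beside this list and the next, 36.2% of all tested genes were called higher and 34.9% lower. Sparc, whose protein binds the B chain, went from 25545 ± 2147 to 56406 ± 794 (SD, n = 3, 2.21-fold) and Thbs1, thrombospondin, rose 9.38-fold. Of 10 co-receptors and modulators, 5 rose and 3 fell, with 2 not called and a median of 0.37. Cspg4 encodes NG2, a proteoglycan that binds the A chain, and had 242, 313 and 274 normalized counts in WT against 6270, 6784 and 6481 in Bmal1 KO. It rose 23.6-fold (limma adjusted p = 2.67e-08). Nrp1, a co-receptor, rose 2.72-fold and Itgb1, the beta-1 integrin gene, 3.28-fold. The genes that fell were Bsg (2.74-fold), Mcam (2.68-fold) and S1pr1 (2.02-fold), and 5 were lower with the GC and length trend removed and the all-gene median not held. Lrp1, whose product binds the beta receptor and restrains it, had a log2 fold change of 0.23 and did not pass (limma adjusted p = 0.216).

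The proximal signalling genes moved by small amounts in both directions, 15 of 36 higher, 11 lower and 10 not passing, with a median log2 fold change of 0.045 and a median size of 0.34. The share that passed was near the 71.1% of all tested genes (36.2% higher, 34.9% lower). Pik3r1, a regulatory subunit of phosphoinositide 3-kinase, rose 2.08-fold and was the only one called at 2-fold or more. Rasa1, the RAS GTPase-activating protein that docks on the beta receptor, rose 1.79-fold, while Plcg1, phospholipase C gamma, fell 1.43-fold. With the GC and length trend removed and the all-gene median not held, 8 were higher and 19 lower, against 28.9% and 47.8% over all genes. Of 18 phosphatase, ubiquitin ligase and other brake genes, 7 rose and 7 fell, leaving 4 that did not pass, around a median of 0.040, again near the shares of all tested genes. The ubiquitin ligase genes Cblb and Cbl, whose products mark activated receptors for breakdown, rose 4.55-fold and 2.05-fold. Ptpn2, a phosphatase gene of the beta receptor, fell 2.53-fold and Nherf1, a scaffold gene for it, fell 2.84-fold. The 7 higher brake genes were 4 with that trend removed and the median kept, and 2 without.

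Of 21 genes known to respond to growth factors, 5 rose and 12 fell, with 4 not called and a median of -0.48. The shares over all tested genes were 36.2% higher and 34.9% lower, for this list and those that follow. Myc and Egr1 fell 4.68-fold and 4.69-fold, whereas Fos rose 2.82-fold and the cyclin gene Ccnd1 3.13-fold, so the list did not move 1 way. Among 13 genes of factors known to bind PDGF gene promoters, which share Egr1 and Klf5 with the former list, 1 (Klf5) rose and 9 fell, with 3 not called and a median of -0.55. Of the 9, Wt1 was tested only through WT. Ets1 fell 2.29-fold and Gata4 went from 216 ± 15.0 to 19.8 ± 8.79 (SD, n = 3). The other class III receptor kinases are the closest relatives of the receptors. Of 7 genes of these kinases and their ligands, 5 rose and 1 fell, with 1 not called and a median of 1.75. Flt3, among the 5, was tested only through Bmal1 KO, and without it 4 of 6 rose (median 1.18). With the GC and length trend removed, 2 were lower. Csf1 rose 3.35-fold and Csf1r, which is also counted among the macrophage markers below, 4.13-fold. Of 8 genes of the related VEGF branch, 4 rose, 3 fell and 1 did not pass (median 0.48). Vegfa, the main angiogenic ligand gene of this branch, fell 12.7-fold (22934 ± 1119 to 1803 ± 183, SD, n = 3, limma adjusted p = 3.30e-08). Vegfd, an X-linked gene related in sequence to Pdgfd, rose 3.33-fold and Vegfc fell 2.22-fold. A difference between these lists and the PDGF genes was not tested.

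**Figure D5:**
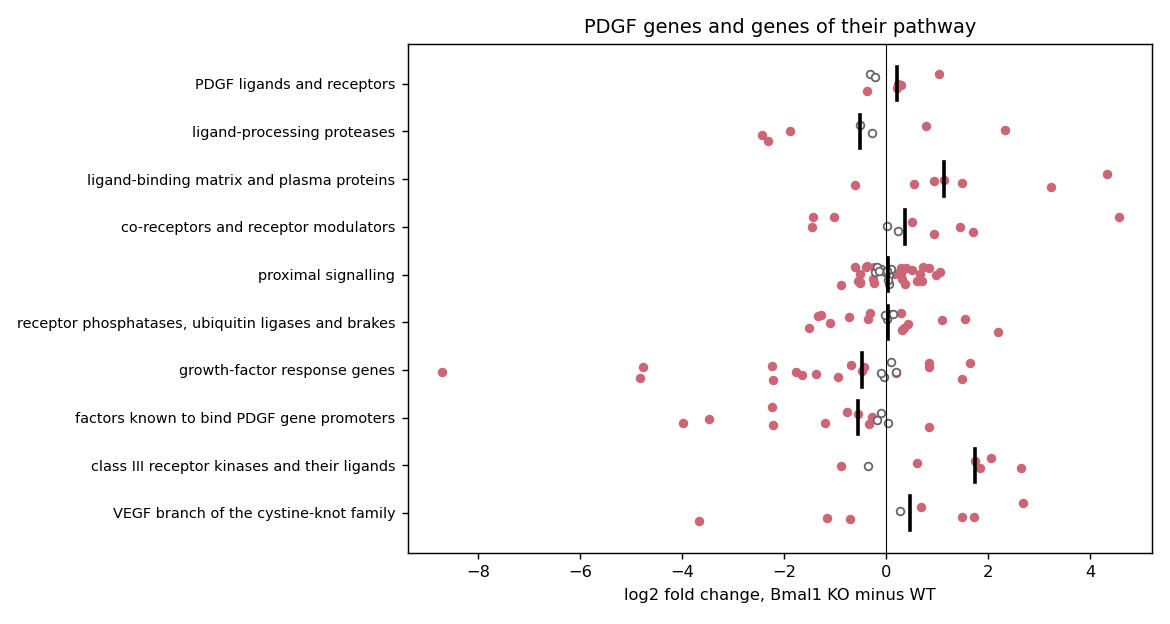
Log2 fold change (x axis, Bmal1 KO minus WT) of each tested gene in the PDGF family and 9 lists of its pathway and relatives (y axis), filled where the adjusted p was under 0.05, with a black bar at each list's median. The PDGF genes and the proximal signalling genes lie close to 0, and the growth-factor response genes reach -8.71 at Cxcl1.

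Marker genes of the cell types that carry PDGF receptors or make PDGF moved as well, as did 71.1% of all tested genes (36.2% called higher, 34.9% lower). In such bulk samples fewer cells of a type and less RNA per cell cannot be told apart. Pdgfra also marks fibroblasts, and of 10 other fibroblast markers 4 were higher and 6 lower. Their summed level was 34616 to 38184 normalized counts in WT and 27022 to 29313 in Bmal1 KO. That fall was carried by Dcn, the most abundant in WT, with means of 26320 and 2403. Of the 4 higher markers, Mfap5 went from 1700 to 13953 and Dpep1 from 67.3 to 7794. Pdgfrb also marks pericytes, and of 7 pericyte markers 3 were higher, 2 lower, 1 did not pass and Higd1b had under 10 reads in every library. Their sum was 6095 to 9110 in WT and 1387 to 1643 in Bmal1 KO, a fall carried by the 2 lower markers. These were Notch3 (means of 5793 and 700) and Rgs5 (1643 and 152). Some marker calls came from genes that reached 10 in all 3 libraries of 1 group only, which had to differ to be tested, and over the genes at 10 or more in every library 1 of 4 pericyte markers was higher and 2 were lower. Endothelial cells and platelets are sources of the B chain. Endothelial markers summed to 654 to 720 and 839 to 1166 (6 of 7 higher, 1 lower, and 2 of 3 higher over such genes). Megakaryocyte markers summed to 640 to 737 and 404 to 462 (1 of 5 higher, 2 lower, 2 not tested). Their lower count was 1 without WT replicate 1, 2 or 3, and 1 over such genes. Macrophage markers summed to 3596 to 4165 and 2375 to 2819 (6 of 8 higher, 2 lower, and 3 of 5 higher over such genes). The lower sum was carried by the 2 lower markers, Cd14 (means of 2886 and 404) and Cd68 (348 and 74.0). Mesothelial markers summed to 3328 to 4385 and 5717 to 6261, a rise carried by Msln alone (356 ± 26.3 to 4525 ± 132, SD, n = 3), while the other 4 were lower, 2 of them at 10 or more in every library. Schwann cell markers summed to 134 to 420 and 942 to 1586 (4 of 5 higher, 1 not tested, and 2 of 2 higher over such genes). None of the 5 adipocyte markers reached 10 reads in any library, and Lep had none. The part of these cell types in the values of the PDGF genes was not tested.

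The genes nearest to each member in pattern were found by the root mean square distance between centred log2 profiles over the 6 libraries, among 12039 candidate genes with a mean of at least 100. For Pdgfd they were Hmga2 (distance 0.042, 2949 ± 104 in WT and 6157 ± 346 in Bmal1 KO, SD, n = 3) and Ccsap (0.047). For Pdgfc they were Ccdc77 (0.023) and Cyhr1 (0.029), and for Pdgfa Stambp (0.030) and Rab5if (0.032). For Pdgfra they were Rbl2 (0.021) and Rbfox2 (0.024), for Pdgfrb Tns2 and Cul7 (0.023 each), for Pdgfrl Stk11ip (0.035) and Dmwd (0.037), and for Pdgfb Stk35os1 (0.087) and Trim37 (0.090). Over 2 groups, a gene with a like difference between them comes near by this measure, as Hmga2 did (log2 fold change 1.06, beside 1.04 for Pdgfd). Shared regulation was not tested.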

How the data were processed

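Polyadenylated RNA of 6 libraries (3 WT, 3 Bmal1 KO, grouped and numbered by sample title) was made into libraries from 1.0 µg of total RNA with a stranded kit, per the labels' protocols. The submitters' processing notes name Trimmomatic, HISAT2, featureCounts and mm10, and give no version or role. The authors' deposited table holds a signal per gene and library, namely read counts divided by 1 factor per library. Undoing that factor returned whole numbers of reads for 100% of values, to within 0.01, and the factors equalled median-ratio size factors, which centre the typical gene on no change.

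The test was limma 3.58.1 (R 4.3.3) on log2(value + 1), with the prior variance following mean level, over genes with at least 10 in at least 3 libraries, with Benjamini-Hochberg adjustment at 0.05. Log2 fold changes are on that scale, folds are ratios of mean normalized counts, and ± is the SD of 3 libraries. Ratios used whole reads plus 1, per kilobase of GENCODE M21 exons (mm10), with exact permutation tests. Alternatives were edgeR 4.0.16 and DESeq2 1.42.0 on recovered reads, other scalings, pseudocounts and filters, a replicate block and each library left out. Removing a trend on GC content and length, and counting lists without genes tested through 1 group only, were added after seeing the data. The members, lists and tests were chosen with earlier results of these data known. Run singly under the alternatives were the members, up to 4 genes per pathway list with the smallest adjusted p, the 2 nearest in pattern and checks of the labels. Not all of these are described above. Among those left out, Adamts1 rose 20.2-fold and Flt1 6.49-fold, while Ccl2 fell 28.5-fold, Ccl7 27.3-fold and Cebpb 4.72-fold. A2m, Furin, Pcsk5, St14, Lrp1, Mcam, S1pr1, Flt3, Wt1, Msln, Plcg1, Cbl, Ptpn2, Fos, Ccnd1, Klf5, Acta2, Tagln, Itga8, Myh11, Myocd, Notch3, Rgs5, Dcn, Mfap5, Dpep1, Cd14, Cd68, Higd1b and Lep were named after their values were seen and were not run singly under the alternatives. Of the members, 4 matched RefSeq promoter windows. No pair of replicates was as alike as sampling noise allows, so none was merged.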

Additional observations from a re-analysis of the deposited data

How the results depend on the processing

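Pdgfd and Pdgfc kept their direction and call under all alternatives. The 5 members past the threshold became 2 with TMM scaling, 2 by edgeR, 3 with total-read scaling, 3 with the GC and length trend removed and the median kept, 4 (1 higher, 3 lower) with it not kept, and 2 to 5 when each library was left out. Over all genes, 72.9% and 76.7% passed with the trend removed, and 63.0% to 72.7% with a library left out. Pdgfa no longer passed by edgeR (log2 fold change 0.21), with TMM scaling (0.21), total-read scaling (0.17), no filter (0.24), the replicate number as a block (0.24) or the trend removed and the median not kept (0.16). Pdgfra no longer passed by edgeR (0.19), with TMM (0.19) or total-read scaling (0.15), and turned to -0.048 and -0.29 with the trend removed, with the median kept and not kept. Pdgfrb no longer passed by edgeR (0.26), with TMM (0.27) or total-read scaling (0.22) or the trend removed and the median kept (0.13), and turned to -0.11 without it. Pdgfrl passed with total-read scaling (-0.29) and Pdgfb with the trend removed and the median not kept (-0.43), and with it kept they were -0.029 and -0.19. With each library left out, log2 fold changes ran from 0.20 to 0.33 for Pdgfa, 0.15 to 0.27 for Pdgfra, 0.19 to 0.40 for Pdgfrb, -0.42 to -0.15 for Pdgfb and -0.28 to -0.14 for Pdgfrl. Removing the trend covered 92.5% of tested genes and also brought every library to the same mean log2 level over them. Together these moved the median of all genes from 0.010 to -0.24, and their effects were not separated. Where the median was not kept, 4297 genes were higher and 7111 lower, against 5816 and 5619. With the trend removed, in the order kept and not kept, Stambp turned to -0.14 and -0.38 and Rbfox2 to -0.075 and -0.32. Only where the median was not kept, Rbl2 turned to -0.16, Tns2 to -0.080 and Cul7 to -0.13. The cause was not tested. The replicate numbers name no shared animal or day, and same-numbered libraries did not deviate together (correlations of -0.0045, 0.026 and 0.084). Not every library correlated best with its own number. With the block, 11556 genes passed in place of 11435, and of the members 4 in place of 5. No ratio changed direction, with paired differences of -0.075, 0.56 and -1.40.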
